A study of Mus musculus with 15 samples.

Results

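The homologous recombination and Fanconi anemia repair genes described here are 37 genes of DNA break and crosslink repair, chosen by their known role, out of 14583 genes found in any of the deposited tables. The choice was made with earlier results of these data known. All 37 were present in each of the 4 tables. RNA was sequenced from 15 samples of 4T1, a mouse mammary carcinoma cell line, in 5 groups of 3 samples. Padi4 encodes a peptidylarginine deiminase that citrullinates histones, and the study examined it for nuclear expulsion, the release of chromatin by dying cells. Spheroids of Padi4WT or Padi4KO cells, that is, with or without a functional Padi4 gene, were grown for 3 days in ultralow attachment plates and for 7 more days after 75% Matrigel was added. The other 3 groups were Padi4KO cells in 2D culture with 2% FBS that received nuclear expulsion products (NEPs), apoptotic debris (apoDBs) or vehicle. NEPs came from iCasp9 Padi4WT donor cells and apoDBs from iCasp9 Padi4KO donor cells, both induced with AP1903, and debris of 5000 donor cells was given to 500 recipient cells. The recipients' genotype comes from the methods of the study and not from the sample labels. Which Padi4KO clone was sequenced is not given in the sources used here, so a difference between genotypes cannot be told apart from a difference between clones.

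Homologous recombination copies an intact sister chromatid to mend a broken one. Nucleases resect the broken ends, the BRCA proteins prepare the single strand for pairing with the intact copy, RAD54 translocases and proteins such as XRCC2 and XRCC3 assist strand invasion, and junction nucleases or the BLM helicase separate the joined molecules. The Fanconi anemia pathway acts at interstrand crosslinks, where a core complex with the E3 ligase FANCL and the E2 enzyme UBE2T ubiquitinates the FANCI-FANCD2 pair, and the kinases ATM and ATR signal the damage to the checkpoint kinases CHEK2 and CHEK1. Many of these genes are transcribed mainly in S and G2 phases of dividing cells.

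Each table gives, per gene, a signed fold change between a pair of groups and a limma p-value. Neither the values of single samples nor their sequencing depths were analysed here, so the spread between samples cannot be shown directly. As error, the largest standard error (SE) that a fold change and its p-value allow together is given on the log2 scale. The false discovery rate (FDR) was computed over all genes of a table, and a gene is called higher or lower where its FDR was below 0.05. Nothing in the sources says that the 3 samples of a group came from separate cultures, so the p-values may measure technical spread. Padi4 itself was 4.18-fold higher in Padi4WT than in Padi4KO spheroids, with a log2 fold change of 2.06, an SE of at most 0.51 and an FDR of 0.000542. In the 2D groups its log2 fold change was 0.15 for NEPs against vehicle with an FDR of 0.109, -0.84 for apoDBs against vehicle with an FDR of 0.000324, and 1.01 for NEPs against apoDBs with an FDR of 1.19e-06. All 5 epithelial markers were in every table. In Padi4WT spheroids Krt8 and Krt18 were higher, with log2 fold changes of 1.23 and 0.90, and Epcam, Cdh1 and Cldn7 were lower, at -2.84, -3.12 and -3.89. In 2D culture 3 of the 5 were lower with NEPs against vehicle and 4 were higher with apoDBs against vehicle. With NEPs against apoDBs, 4 were lower, from -1.30 to -0.76, and Cdh1 was higher at 0.27. The part of these marker differences in the repair genes' results was not tested. Of 6 markers of blood, endothelial and stromal cells, Col1a1 was in the spheroid table, with a log2 fold change of -4.19, the other 5 were not, and none was in a 2D table.

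Padi4WT spheroids had more RNA of most of these repair genes than Padi4KO spheroids. Of the 37 genes, 26 were higher and 1 was lower, while the FDR of the other 10 was 0.05 or above. Among all 14053 genes of the table, 21.7% were higher and 26.1% lower. The median log2 fold change was 1.67 over the 37 genes, with quartiles of 0.18 and 2.15, and -0.08 over all genes. The log2 fold change was above 2 for 13 of the 37 genes, against 7.01% of all genes. The study set its limits at a log2 fold change beyond 2 in size and an FDR under 0.0001. By these limits, 7 of the 37 genes were called, and 4.05% of all genes. These were Brca1, Rad54l, Rad54b, Fancd2, Exo1, Eme1 and Clspn, all higher in Padi4WT spheroids.

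The 3 highest genes came from different steps of repair. Eme1, the partner subunit of the MUS81 endonuclease, was 8.19-fold higher in Padi4WT spheroids (log2 fold change 3.03, SE at most 0.59, FDR 1.85e-05). Exo1, the exonuclease of long-range end resection (chr1:175880581-175913489, plus strand, GRCm38), was 7.74-fold higher (log2 fold change 2.95, SE at most 0.58, FDR 1.86e-05). Clspn, which encodes Claspin, the adaptor through which ATR activates CHEK1, was 7.1-fold higher (log2 fold change 2.83, SE at most 0.53, FDR 1.23e-05). The 3 lowest genes were Atm, Atr and Rad50. Atr, the kinase that responds to single-stranded DNA, was the only one of the 37 genes called lower, at 0.636 of its level in Padi4KO spheroids (log2 fold change -0.65, SE at most 0.27, FDR 0.0363). Atm, the kinase that responds to double-strand breaks, had a log2 fold change of -0.80 with an SE of at most 0.40 and an FDR of 0.0842. Rad50, the ATPase of the MRE11 complex, had a log2 fold change of -0.30 with an SE of at most 0.16 and an FDR of 0.114.

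**Figure D1:**
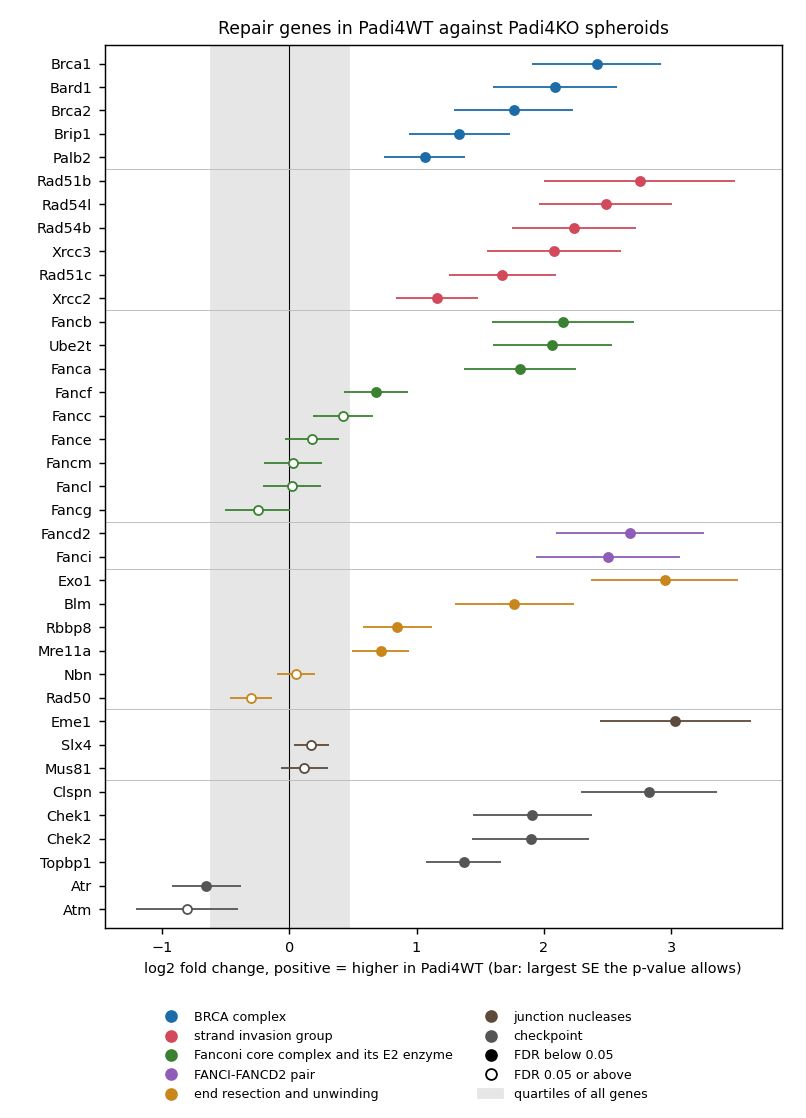
The log2 fold change of each of the 37 genes in Padi4WT against Padi4KO spheroids is plotted on the x axis, grouped by role, with bars for the largest SE that the p-value allows; filled points have an FDR below 0.05 and the gray band runs from the lower to the upper quartile of all genes. The BRCA, strand invasion and FANCI-FANCD2 genes all lie above a log2 fold change of 1, while the Fanconi core, resection, nuclease and checkpoint groups each hold genes near or below 0.

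All 5 genes of the BRCA complex were higher, with log2 fold changes from 1.06 to 2.42. Brca1, an E3 ubiquitin ligase that promotes end resection, was 5.34-fold higher (SE at most 0.51 on the log2 scale, FDR 5.10e-05). Its obligate partner Bard1 had a log2 fold change of 2.09. The log2 fold change of Brca2, a mediator of strand exchange, was 1.76, that of the helicase Brip1 was 1.34, and that of Palb2, the bridge between BRCA1 and BRCA2, was 1.06.

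The 6 genes of strand invasion, Rad51b, Rad51c, Xrcc2, Xrcc3, Rad54l and Rad54b, were likewise all higher, with a median log2 fold change of 2.16. Rad54l, a translocase that acts in strand invasion, was 5.61-fold higher (log2 fold change 2.49, SE at most 0.52, FDR 5.12e-05). Its relative Rad54b had a log2 fold change of 2.23 (SE at most 0.49, FDR 8.86e-05). Rad51b had the largest estimate of this group, 2.75, but also the widest error of the 37 genes, with an SE of at most 0.75 and an FDR of 0.00156. Xrcc3, Rad51c and Xrcc2 followed at 2.08, 1.67 and 1.16. Rad54b shares 35.8% of its annotated exonic bases with Fsbp on the same strand and Rad54l shares 15.4% with Lrrc41 on the opposite strand. Whether the counting used strand is not given in the sources used here, so reads of these overlaps cannot be assigned.

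The Fanconi core complex was split. Of its 8 genes and that of its E2 enzyme, Ube2t, 4 were higher, namely Fancb, Ube2t, Fanca and Fancf, and 5 were not called, namely Fancc, Fance, Fancm, Fancl and Fancg. Fancb, a subunit of the module that holds FANCL, had a log2 fold change of 2.15, Ube2t 2.07, the scaffold subunit Fanca 1.82 and Fancf 0.68. The other 5 lay between -0.25 for Fancg and 0.42 for Fancc, and Fancm, the translocase that anchors the complex on DNA, had 0.03 with an FDR of 0.924. Among these genes Fanca, Fancc, Fancf and Fancl share between 10.5% and 16.4% of their exonic bases with a gene on the opposite strand.

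Both substrates of the core complex were higher. Fancd2 was 6.39-fold higher (log2 fold change 2.68, SE at most 0.58, FDR 8.41e-05) and Fanci 5.68-fold higher (log2 fold change 2.51, SE at most 0.56, FDR 0.000147). Both estimates are above that of every core complex gene. Fanci shares 16.0% of its exonic bases with Polg on the opposite strand.

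End resection showed a range from Exo1 at the top to Rad50 at the bottom. Blm, the helicase that unwinds resected ends and joined molecules, was 3.41-fold higher, with a log2 fold change of 1.77. Rbbp8, which encodes the resection cofactor CtIP, and Mre11a, the nuclease of the MRE11 complex, were higher by smaller amounts, with log2 fold changes of 0.85 and 0.72. Nbn, the adaptor of the MRE11 complex that recruits ATM, had a log2 fold change of 0.05 with an FDR of 0.789. The 3 subunits of the MRE11 complex thus lay between -0.30 and 0.72, while Exo1 was at 2.95.

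Genes whose products work as partners did not have like values in several cases. Eme1 was at 3.03 and Mus81, the catalytic subunit of the same nuclease, was at 0.12 with an SE of at most 0.19 and an FDR of 0.608, a gap of 2.92 on the log2 scale. The nuclease scaffold Slx4 was at 0.17 with an FDR of 0.295. Ube2t exceeded Fancl, the ligase it serves, by 2.04, since Fancl had a log2 fold change of 0.02. The checkpoint kinase Chek1 was at 1.91 and its activator Atr at -0.65, and Chek2 was at 1.90 and its activator Atm at -0.80, with gaps of 2.56 and 2.70. Topbp1, which activates ATR at stalled forks, was higher with a log2 fold change of 1.37 (FDR 6.31e-05). Exo1 exceeded Rbbp8 by 2.10, and Topbp1 minus Clspn was -1.46. Pairs with closer values were Brca2 with Palb2, 0.70 apart, Brca1 with Bard1, 0.33 apart, and Fancd2 with Fanci, 0.17 apart. The pairs were chosen after the values were seen. The gaps were not tested, since that needs values per sample.

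Promoter sequences of the highest and lowest of these genes are shown so that words recognized by regulators of S and G2 phase transcription can be seen beside the values. The submitters' notes name mm9, whereas the tables' identifiers match a GRCm38 annotation, so genes were placed on GRCm38. RefSeq promoters on build GRCm38.p6 were matched by symbol for 30 of the 37 genes, and the genes without an entry are Rad54b, Fancd2, Xrcc2, Exo1, Rad50, Nbn and Rbbp8. Each shown sequence runs 5′ to 3′ from 250 bases before the start of transcription through the first 30 transcribed bases, and capitals mark the words TTTCCCGC, TTTGGCGC, TTTCGCGC or TTTGCCGC (E2F type), TTTGAA or TTCGAA (the CHR, or cell cycle genes homology region, type) and CCAAT, searched on both strands. Eme1 and Clspn are among the 3 highest genes, Atm and Atr among the 3 lowest, and Mus81 is the partner of Eme1.
Eme1, chr11:94653714-94653993, minus strand: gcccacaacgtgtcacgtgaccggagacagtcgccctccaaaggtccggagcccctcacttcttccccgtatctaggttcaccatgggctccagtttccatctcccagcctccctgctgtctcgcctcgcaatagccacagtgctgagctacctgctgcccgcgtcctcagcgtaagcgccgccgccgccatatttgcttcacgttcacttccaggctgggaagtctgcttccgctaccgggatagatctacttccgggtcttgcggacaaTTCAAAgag
Clspn, chr4:126556730-126557009, plus strand: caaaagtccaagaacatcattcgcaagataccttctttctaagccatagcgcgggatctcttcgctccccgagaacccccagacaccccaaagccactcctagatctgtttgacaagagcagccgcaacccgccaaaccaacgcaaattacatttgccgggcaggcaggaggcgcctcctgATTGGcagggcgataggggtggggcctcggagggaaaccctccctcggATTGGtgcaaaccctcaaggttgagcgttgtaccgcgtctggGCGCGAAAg
Mus81, chr19:5488350-5488629, minus strand: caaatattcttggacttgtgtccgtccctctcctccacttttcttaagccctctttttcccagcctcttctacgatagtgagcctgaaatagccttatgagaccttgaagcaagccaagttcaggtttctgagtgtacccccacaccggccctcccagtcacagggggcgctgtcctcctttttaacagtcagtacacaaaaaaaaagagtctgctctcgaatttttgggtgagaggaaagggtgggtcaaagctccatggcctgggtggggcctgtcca
Atr, chr9:95857347-95857626, plus strand: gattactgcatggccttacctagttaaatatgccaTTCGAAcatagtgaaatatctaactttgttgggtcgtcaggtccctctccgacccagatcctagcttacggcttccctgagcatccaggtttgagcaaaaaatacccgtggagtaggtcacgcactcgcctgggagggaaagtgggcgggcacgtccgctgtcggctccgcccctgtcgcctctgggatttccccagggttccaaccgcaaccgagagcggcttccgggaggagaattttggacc
Atm, chr9:53536642-53536921, minus strand: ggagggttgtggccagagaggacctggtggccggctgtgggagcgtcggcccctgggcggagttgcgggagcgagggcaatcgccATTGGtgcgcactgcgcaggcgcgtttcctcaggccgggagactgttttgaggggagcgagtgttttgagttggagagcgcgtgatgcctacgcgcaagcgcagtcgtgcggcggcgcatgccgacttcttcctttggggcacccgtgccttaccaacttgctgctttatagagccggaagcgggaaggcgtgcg

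Over the whole window of 300 bases, an E2F-type word was found in promoters of 7 of the 30 genes (23.3%), against 2.26% of all 32851 promoters and 4.81% of the 9053 genes of the spheroid table that have a promoter. The 7 genes were Bard1, Brca2, Rad51c, Fancg, Chek2, Topbp1 and Clspn, and 6 of them were higher in Padi4WT spheroids, Fancg being the exception. Their median log2 fold change was 1.76, and that of the 23 genes without such a word was 1.34, of which 15 were higher. CCAAT was found for 19 of the 30 genes (63.3%), against 37.4% of all promoters and 43.2% of the genes of the table. The median log2 fold change was 1.77 over these 19 genes and 1.67 over the 11 without it. A CHR-type word was found for 4 genes, Bard1, Rad51b, Eme1 and Atr (13.3%), against 19.2% of all promoters and 15.8% of the genes of the table, with medians of 2.42 with and 1.52 without it. In Clspn, the E2F-type word lies on the reverse strand from base 22 after the start, with CCAAT boxes on the reverse strand 69 and 21 bases before it. In Eme1 the only word found was TTTGAA on the reverse strand at base 22, in Atm it was CCAAT on the reverse strand 165 bases before the start, in Atr it was TTCGAA, which reads alike on both strands, 215 bases before the start, and in Mus81 none was found. Rad51b, Rad51c and Rad54l have 2 promoters each, and no match of a kind overlapped a match of another kind. A word match describes the sequence and does not show that a factor binds there.

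**Figure D2:**
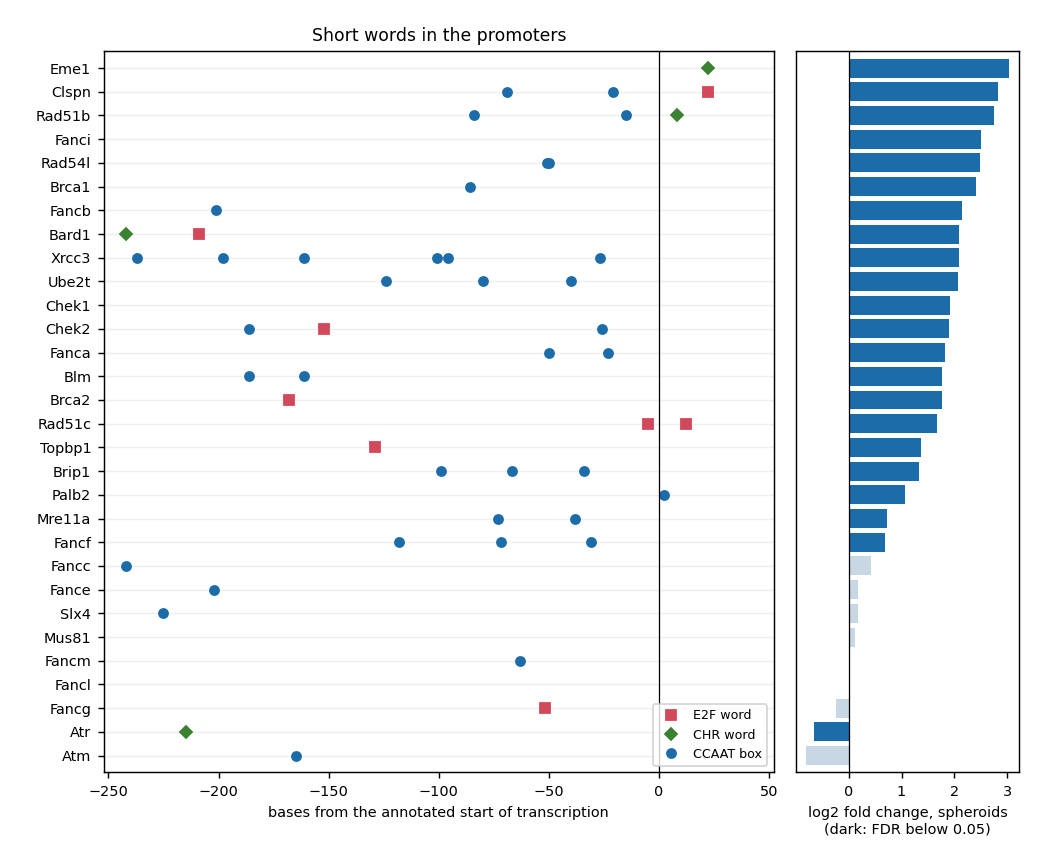
Positions of the E2F-type, CHR-type and CCAAT words are plotted along the promoters in bases from the start of transcription (left), with the genes ordered by their log2 fold change in spheroids, drawn as bars from 0 (right; dark where the FDR is below 0.05). E2F-type words occur for 7 of the 30 genes from Clspn near the top to Fancg near the bottom, and CCAAT words occur for genes over the whole range.

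Other listed genes of the repair pathway had a lower median than the 37 genes. All lists were chosen with earlier results of these data known, so this contrast cannot be told apart from that choice. Outside the 37 genes, 59 further genes of homologous recombination, the Fanconi pathway and the damage checkpoint were in the spheroid table. Of these, 23 were higher and 9 lower, with a median log2 fold change of 0.23. Among 26 mediator, strand exchange and associated recombination genes, 10 were higher and 4 lower. Their values ran from Brcc3, a deubiquitinase of the BRCA1-A complex, at -1.26 to Rmi2, a subunit of the BLM complex, at 2.64. Among 16 further Fanconi genes, 5 were higher and 4 lower, from Rev3l, the catalytic subunit of translesion polymerase zeta, at -2.23 to the nuclease subunit Ercc1 at 2.38. Among 17 checkpoint adaptor and chromatin ubiquitin genes, 8 were higher and 1 lower, from Trp53bp1, which restrains end resection, at -0.37 to the fork protection gene Timeless at 2.16.

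The median log2 fold change of the other repair pathways was nearer to that of all genes than to the 37 genes. In the non-homologous end joining list it was -0.11 with 2 of 10 genes higher and 3 lower. Genes of this list ran from the nuclease Dclre1c at -1.61 to Polq, a polymerase of alternative end joining, at 1.75. In nucleotide excision repair the median was -0.15 with 2 of 12 higher and 4 lower, from the damage sensor Xpc at -1.29 to Ddb1 at 0.53. In mismatch repair it was 0.39 with 4 of 7 higher, from Mlh3 at -0.34 to Msh6 at 1.09. In base excision repair it was 0.31 with 6 of 15 higher and 3 lower, from the polymerase Polb at -0.92 to the glycosylase Neil3 at 2.70. Of 12 p53 targets, none was higher and 3 were lower, with a median of -0.03, from the death receptor gene Fas at -1.61 to Phlda3 at 0.68.

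All 16 proliferation markers were higher in Padi4WT spheroids, with a median log2 fold change of 2.82, from the replication clamp Pcna at 1.53 to the cyclin gene Ccna2 at 3.44. Eme1, Exo1 and Clspn were above that median, and 18 of the 37 repair genes, Topbp1, Brip1, Xrcc2 and Palb2 among them, were below the lowest marker. The part of proliferation in the repair genes' result was not tested. In bulk samples, fewer cycling cells and less RNA per cell cannot be told apart.

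**Figure D3:**
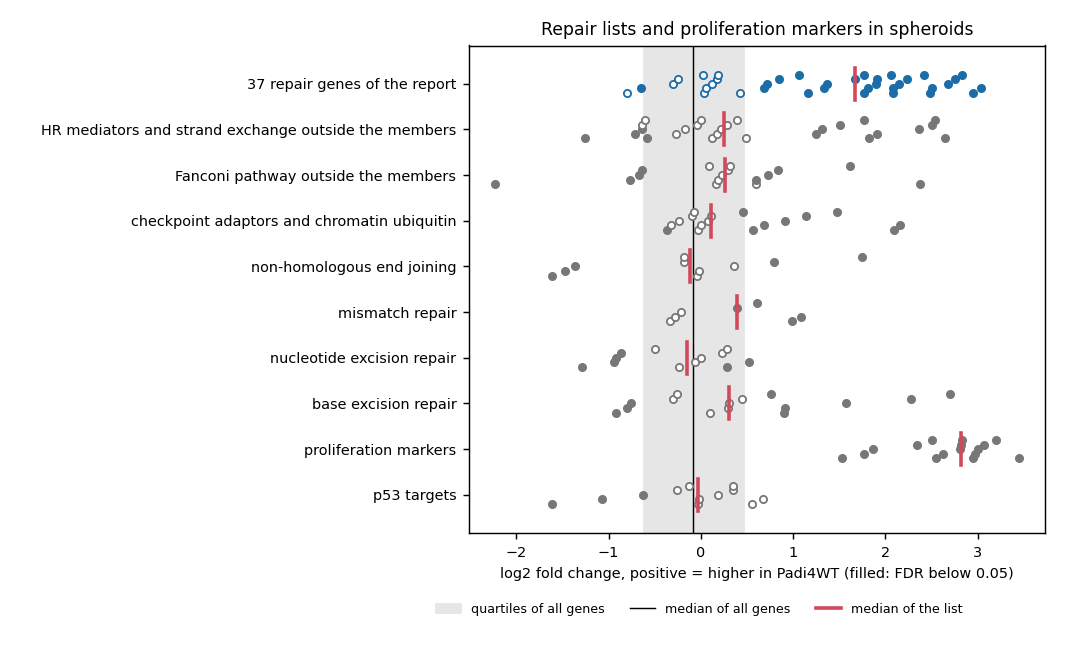
Each point is a gene, placed on the x axis by its log2 fold change in Padi4WT against Padi4KO spheroids, for the 37 repair genes (blue) and 9 other lists (gray), with filled points for an FDR below 0.05, red bars for list medians and the gray band between the quartiles of all genes. The median of the 37 genes is 1.67, that of the proliferation markers 2.82, and those of the other lists lie between -0.15 and 0.39.

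In 2D culture the differences were smaller, and none of the 37 genes reached a log2 fold change of 1 in size. With NEPs against vehicle, 16 of the 37 genes were higher and 4 lower, while among all genes 24.3% were higher and 31.1% lower. The median log2 fold change was 0.15 over the 37 genes and -0.05 over all genes. Fancb (chrX:164980592-164997272, plus strand, GRCm38) was the highest, 1.97-fold higher with NEPs (log2 fold change 0.98, SE at most 0.23, FDR 0.000120). It was followed by Rad51c, a gene of the strand invasion group, at 0.67 (SE at most 0.18, FDR 0.000663) and Clspn at 0.51 (SE at most 0.13, FDR 0.000393). The lowest was Fance, the core subunit that contacts FANCD2, at -0.45 (SE at most 0.15, FDR 0.00683), followed by Atr at -0.40 (SE at most 0.12, FDR 0.00275). Xrcc3, also of strand invasion, came next at -0.32 with an SE of at most 0.15 and an FDR of 0.0535, just outside the limit.

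By role, end resection had 4 of 6 genes higher with NEPs against vehicle, namely Rbbp8, Exo1, Blm and Nbn, with log2 fold changes from 0.40 to 0.50. Of the strand invasion group, 4 of 6 were higher, Rad51c, Rad54l, Rad54b and Xrcc2. Of the BRCA complex, Brca1 and Brca2 were higher, at 0.26 and 0.28. The checkpoint group had Clspn, Chek1 and Chek2 higher and Atr lower. Of the 9 genes of the core complex and its E2 enzyme, Fancb was higher, and Fancc and Fance were lower. Fanci was higher at 0.30, while Fancd2 had a log2 fold change of 0.02 with an FDR of 0.833. Of the junction nucleases Eme1 was higher at 0.31 and Slx4 lower at -0.16.

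With apoDBs against vehicle, 10 of the 37 genes were higher and 4 lower, against 22.9% higher and 22.6% lower among all genes. The median log2 fold change was 0.12 over the 37 genes and 0.01 over all genes. Rad51c was the highest, 1.94-fold higher with apoDBs (log2 fold change 0.96, SE at most 0.22, FDR 0.000327). Nbn followed at 0.41 (SE at most 0.15, FDR 0.0159) and Clspn at 0.39 (SE at most 0.12, FDR 0.00584). Atr was the lowest, at 0.633 of its level with vehicle (log2 fold change -0.66, SE at most 0.16, FDR 0.000611). Atm was lower at -0.45 (SE at most 0.14, FDR 0.00701) and Fanca at -0.26 (SE at most 0.09, FDR 0.0130), and Slx4 was the other gene called lower, at -0.19.

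By role, the same number of end resection genes, 4 of 6, was higher with apoDBs, with log2 fold changes of 0.26 to 0.41 for Exo1, Blm, Rbbp8 and Nbn. The helicase Brip1 was the only gene of the BRCA complex called higher, at 0.38, and Rad51c the only one of the strand invasion group. Fancl was called higher at 0.34 with an FDR of 0.0475. Fanci and Eme1 were higher at 0.29 and 0.26.

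NEPs and apoDBs were compared with the same vehicle samples, so shared calls are no independent support and values are only set side by side. With NEPs and with apoDBs, the log2 fold change against vehicle was 0.67 and 0.96 for Rad51c, 0.51 and 0.39 for Clspn, 0.44 and 0.26 for Exo1, 0.40 and 0.41 for Nbn, and -0.40 and -0.66 for Atr. The proliferation markers had medians of 0.35 with NEPs and 0.38 with apoDBs against vehicle, with 11 of 16 called higher and 2 lower with NEPs and 13 higher and none lower with apoDBs, and their part in the repair genes' values was not tested. The other 59 genes of the pathway had medians of 0.01 with NEPs, 16 higher and 17 lower, and 0.05 with apoDBs, 13 higher and 10 lower.

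The direct comparison of NEPs with apoDBs shows which genes differed between cells given either kind of debris. NEPs came from Padi4WT and apoDBs from Padi4KO donors, so the kind of debris cannot be told apart from donor genotype or clone. Whether donor RNA was carried over with the debris was not tested. Of the 37 genes, 10 were higher and 6 lower with NEPs, while among all genes 23.4% were higher and 31.4% lower. The median log2 fold change was 0.05 over the 37 genes and -0.06 over all genes. Fancb was the highest, 1.81-fold higher with NEPs (log2 fold change 0.85, SE at most 0.20, FDR 0.000139). Against vehicle it was at 0.98 with NEPs and at 0.15 with apoDBs, where its FDR was 0.396. Atm and Atr came next, both at 0.27 (SE at most 0.09, FDR 0.00677 and 0.00711). Against vehicle, Atm was at -0.45 with apoDBs and -0.18 with NEPs, and Atr at -0.66 and -0.40. These values come from the same NEP and apoDB samples, so their order is no independent support. The lowest were Xrcc3 at -0.35 (SE at most 0.12, FDR 0.0104), Fance at -0.32 (SE at most 0.13, FDR 0.0236) and Fancc at -0.30 (SE at most 0.11, FDR 0.0163).

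The remaining genes called in this comparison had smaller values. Rad54b, Exo1, Rbbp8, Fanca, Rad54l, Bard1 and Palb2 were higher with NEPs, with log2 fold changes from 0.17 to 0.23. Rad51c, Fancl and Brip1 were lower with NEPs, with log2 fold changes from -0.27 to -0.23. Each was called higher with apoDBs against vehicle, which uses the same apoDB samples and is no independent support. With an FDR below 0.01, 3 of the 10 higher genes, Fancb, Atm and Atr, and 0 of the 6 lower genes were still called, and Rbbp8 also lost its call with adjustment over the 4 tables together. Of the 9 genes of the core complex and its E2 enzyme, Fancb and Fanca were higher and Fancc, Fance and Fancl lower. These 2 higher and 3 lower genes are near the shares of all genes, 23.4% higher and 31.4% lower. The proliferation markers had a median of -0.13 in this comparison, with 1 of 16 higher and 7 lower, and the other 59 pathway genes had a median of -0.01, with 12 higher and 17 lower.

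**Figure D4:**
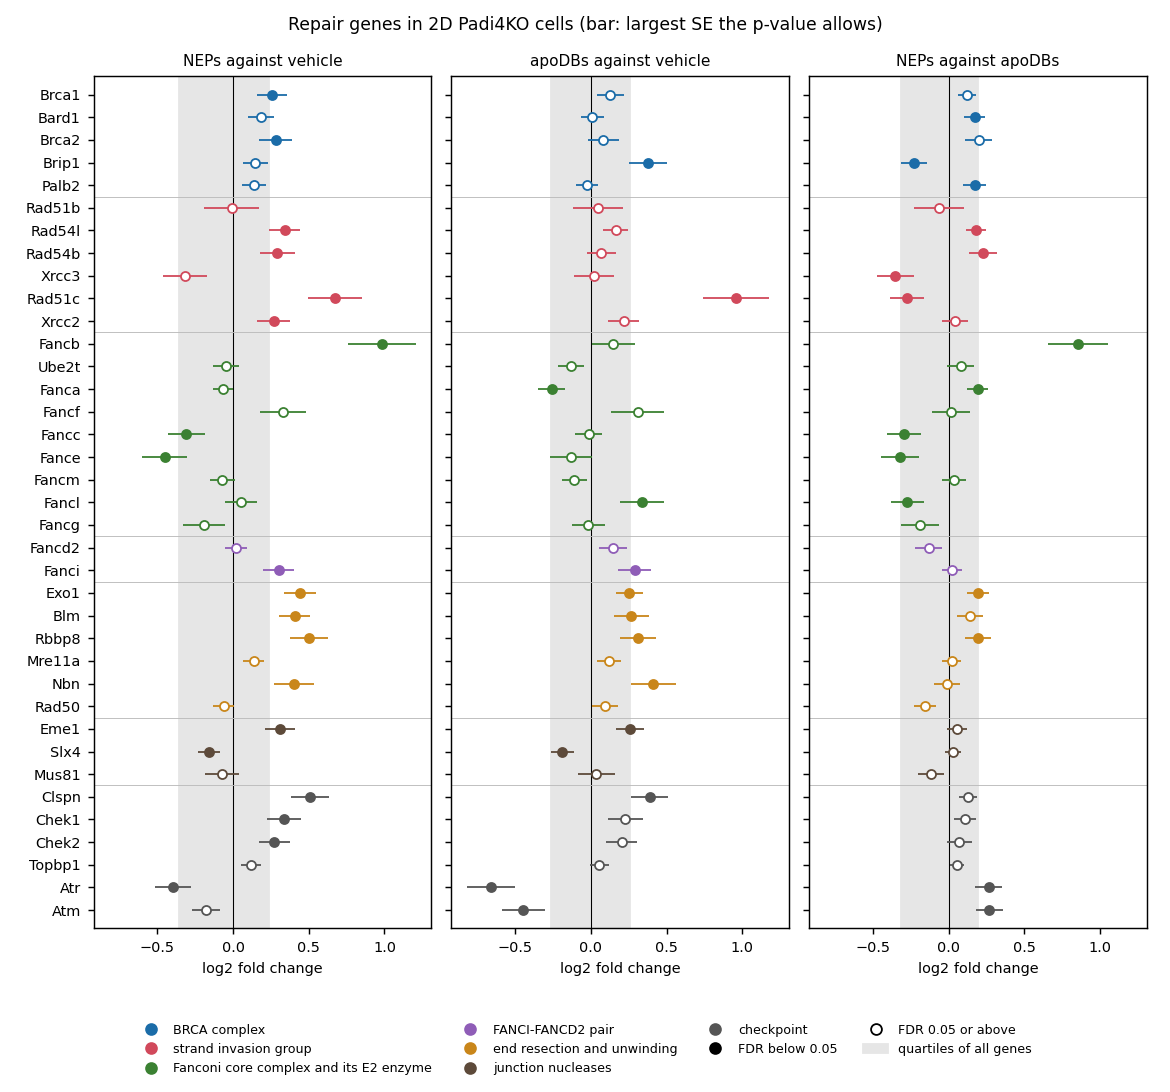
The log2 fold changes of the 37 genes in 2D Padi4KO cells are plotted for NEPs against vehicle (left), apoDBs against vehicle (middle) and NEPs against apoDBs (right), with bars for the largest SE that the p-value allows, filled points for an FDR below 0.05 and a gray band between the quartiles of all genes. Fancb stands to the right with NEPs at 0.98 and 0.85, Rad51c at 0.67 with NEPs and 0.96 with apoDBs, and Atr to the left in both comparisons against vehicle.

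None of the 37 genes passed the limits of the study in a 2D table, where 2.65% of all genes passed for NEPs against vehicle, 0.233% for apoDBs against vehicle and 2.21% for NEPs against apoDBs. With the unadjusted limma p-value below 0.05, 23, 18 and 20 of the 37 genes passed in these tables, against 60.8%, 53.8% and 59.9% of all genes, and no other tool was run.

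Across the tables, 15 genes were called higher both in Padi4WT spheroids and with NEPs against vehicle. This is 40.5% of the 37 genes, against 9.58% of the 13062 genes of both tables. They were Brca1, Brca2, Rad51c, Xrcc2, Rad54l, Rad54b, Fancb, Fanci, Rbbp8, Exo1, Blm, Eme1, Chek1, Chek2 and Clspn. Of these, Brca1, Brca2, Xrcc2, Rad54b and Chek2 lost their call with NEPs against vehicle at an FDR below 0.01. Taken singly, 70.3% of the 37 genes were higher in spheroids and 43.2% with NEPs, against 21.7% and 24.3% of all genes. The overlap was not tested against these single shares. Of the 16 proliferation markers, 16 were higher in spheroids, and 11 were higher and 2 lower with NEPs. Their part in the overlap was not tested. None of the 37 genes was called higher in Padi4WT spheroids and lower with NEPs against vehicle, a pattern of 3.57% of all genes. Atr was called lower in spheroids and in both comparisons against vehicle, which share their vehicle samples. Its call in spheroids was lost at an FDR below 0.01. The share of all genes with this pattern was not computed. Taken singly, 26.1% of all genes were lower in spheroids, 31.1% with NEPs and 22.6% with apoDBs against vehicle. Called in spheroids and in no 2D table were Rad51b, Fancf, Ube2t, Fancd2, Mre11a and Topbp1, which is 16.2% of the 37 genes, against 8.02% of the 12686 genes of all 4 tables. Fancc, Fance, Fancl, Nbn, Slx4 and Atm were called in a 2D table but not in spheroids, again 16.2%, against 40.0% of all genes. Fancg, Fancm, Rad50 and Mus81 were called in no table, which is 10.8%, against 12.9% of all genes.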

How the data were processed

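Samples of 4T1 RNA, 15 in all, were put into groups from their labels and compared in 4 limma tables that the authors deposited. The deposited fold change is a score with a sign, in which a ratio under 1 appears as its negative reciprocal, and the deposited p-value is limma's p-value for each gene without adjustment. The submitters' processing notes name mm9 and limma without a version. The aligner, counting tool, strand setting, low-expression filter and normalization are not given in the sources used here. The authors' fold changes and p-values are the only measurements used, so no model was refitted, and the depth per sample is unknown.

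Fold changes were converted to log2, and FDRs were obtained with Benjamini-Hochberg adjustment of each table's p-values over its full set of genes. The SE bound is the absolute log2 fold change divided by the normal quantile of the two-sided p-value, which is never below the SE of a t-based test if both values come from the same fit. Genes were found by symbol in the spheroid table and joined by Ensembl identifier. Older names in the other lists were matched through RefSeq synonyms. Among the repair lists and p53 targets, Hrob, Neil2, Eda2r and Gdf15 were absent from the spheroid table under symbol and synonym. Why they were absent is not known. Of the identifiers, 99.9% are in GENCODE M21 (GRCm38) and between 93.6% and 93.7% have its version, although the notes name mm9, so exon overlaps were taken from M21. The 37 genes, their roles and the other lists were chosen with earlier results of these data known. Full values are given for the 3 highest and 3 lowest of the 37 genes in each table and for every one past the limits of the study. The others are given by role, with further values where partner genes are compared, chosen after the values were seen. In the other lists the highest and lowest gene are named, and 1 gene is not reported here. Alternatives were an FDR below 0.01, a fold change above 2, adjustment over the 4 tables together, centering on the median of all genes, joining by symbol, and other limits for the study's call. Scripts ran under Python 3.11.15 with numpy 2.4.6, pandas 2.3.3, scipy 1.17.1 and matplotlib 3.10.9, and the code was tested on simulated data.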

Additional observations from a re-analysis of the deposited data

Results flagged for a closer look

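The effects of NEPs and of apoDBs against vehicle differed for 16 of the 37 genes, as tested by NEPs against apoDBs with an FDR below 0.05. Of the 37 genes, 27.0% were higher and 16.2% lower, against 23.4% higher and 31.4% lower among all genes. Fancb stood apart, with a log2 difference of 0.85. The kinase genes Atm and Atr followed at 0.27 each. Smaller positive differences were 0.23 for Rad54b, 0.19 for Exo1, Rbbp8 and Fanca, 0.18 for Rad54l and 0.17 for Bard1 and Palb2. Negative differences were -0.23 for Brip1, -0.27 for Fancl and Rad51c, -0.30 for Fancc, -0.32 for Fance and -0.35 for Xrcc3. Rbbp8 lost its call with adjustment over the 4 tables together.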

How the results depend on the processing

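Joining by symbol and centering on the median of all genes left every count of called genes within 1.5 times its value, and so did adjustment over the 4 tables together. Centering moved the median of the 37 genes from 1.67 to 1.75 in spheroids and from 0.05 to 0.11 for NEPs against apoDBs. With an FDR below 0.01, the count lower in spheroids went from 1 to 0, lower with NEPs against vehicle from 4 to 2, higher and lower with apoDBs against vehicle from 10 to 2 and from 4 to 2, and higher and lower with NEPs against apoDBs from 10 to 3 and from 6 to 0. Of the genes higher with NEPs against vehicle, Brca1, Brca2, Xrcc2, Rad54b and Chek2 lost their call at this limit. Of those higher in spheroids, Fancf did. With a fold change above 2 in addition, the count lower in spheroids and all counts in the 2D tables were 0, since no log2 fold change in 2D reached 1 in size. With the study's log2 limit of 2 and a looser FDR limit of 0.01, 13 of the 37 genes were called in spheroids instead of 7. Of 740 single gene values under these settings, 653 stayed on their side of the limit, 87 lost their call and no called gene turned direction. No paired analysis was possible because values per sample were not analysed here, and leaving out each replicate could not be run for the same reason. Depth is unknown, and an SE bound is not a replicate error.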
